A study of Caenorhabditis elegans with 6 samples.

Results

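The transcriptome of whole control worms was described from 3 of the 6 RNA-seq libraries of the study, the 3 whose titles mark them as control RNAi. The animals were wild-type Caenorhabditis elegans of strain N2. As larvae they were fed bacteria carrying L4440, the empty vector of RNA interference feeding, as young adults they were moved to E. coli OP50 at 20°C, and they were collected as 5-day-old adults. The other 3 libraries came from worms fed vit-5 RNAi bacteria and were not used here. The labels do not say whether the 3 control libraries came from separate cultures, so every SD below is a spread among 3 libraries that may be technical only, and with 1 group no test between groups was possible.

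An adult hermaphrodite of this species carries a gonad that makes oocytes and early embryos, an intestine that feeds the oocytes with yolk, a cuticle-secreting epidermis, muscles and a small nervous system. Whole-animal RNA mixes all of these. Ribosomes are made by every cell, and growing oocytes are loaded with both ribosomal components and stored messenger RNA for the embryo.

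Levels are given as FPKM, which counts fragments relative to transcript length and to the size of the library, so levels of different genes are compared per length. Values after ± are SDs over n = 3 libraries, and sets of 3 values are control replicates 1, 2 and 3 in that order. Libraries held 12272, 12041 and 12438 genes at or above 1 FPKM. By the mean of the 3, 12305 genes reached 1 FPKM, of which 11916 are protein-coding, or 60% of the 19846 protein-coding genes listed, and 2774 protein-coding genes were listed at 0 in all 3 libraries. The spacing of low values gave rough depths of 21100000, 19900000 and 20000000 fragments, each the best-fitting step on these same values. Replicate 1 stood apart from replicates 2 and 3 in many genes, as given with the spread below, so counts that rest on it are given there with and without it.

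The FPKM sum was concentrated in few genes. The 10 most abundant genes of each library held 6.63, 8.11 and 7.48% of the sum, and the top 1000 held 76.4, 80.8 and 78.7%. In replicates 1, 2 and 3, 184, 132 and 151 genes were enough to reach 50% of the sum. Replicate 1 was the least concentrated and replicate 2 the most. Of the 100 most abundant genes, 90 were shared by the top 100 of all 3 libraries.

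**Figure D1:**
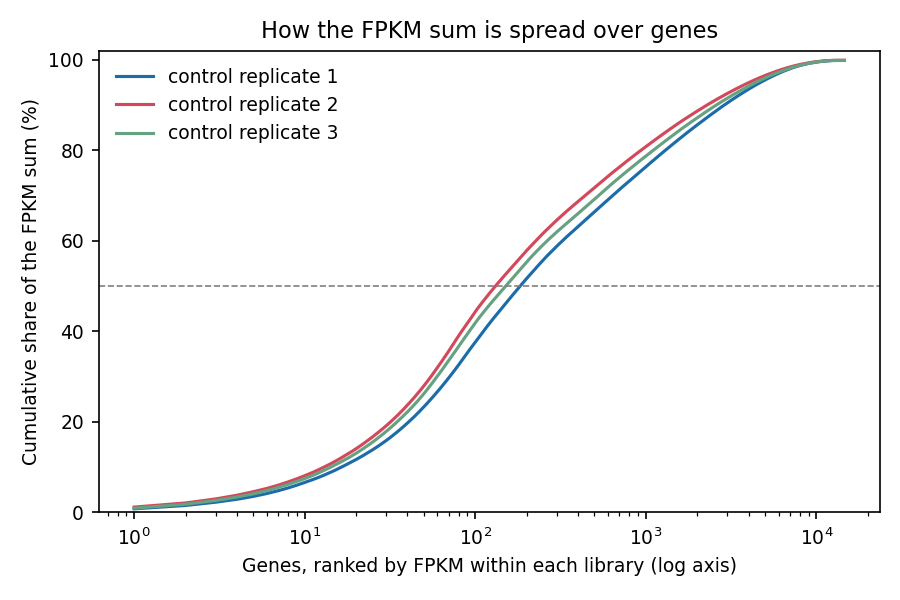
Cumulative share of the FPKM sum (vertical axis, %) against the number of genes ranked by FPKM within each library (horizontal log axis), 1 line per control library, with a dashed line at 50%. The line of replicate 1 runs lowest and reaches the dashed line at 184 genes, against 132 in replicate 2 and 151 in replicate 3.

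The most abundant transcripts were those of protein synthesis. Ribosomal protein genes were 7 of the top 10, 24 of the top 30 and 77 of the top 100 genes by mean level. The highest was rpl-41.2, a large-subunit protein gene, at 8611, 11298 and 11830.3 FPKM (10579.7 ± 1725), followed by rpl-38 at 8364, 10114 and 11044 (9840.4 ± 1360.4). Both were lowest in replicate 1. The gene eef-1A.1, which encodes the elongation factor that brings aminoacyl-tRNA to the ribosome, ranked between ribosomal proteins at 9306, 9793 and 9574 FPKM (9558 ± 244), with a CV of 2.55%. Ranking by the median in place of the mean kept 28 of the top 30.

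The other 6 of the top 30 were eef-1A.1, sip-1, Y82E9BR.3, C17F4.7, far-2 and a ribosomal RNA gene, rrn-3.1. The small heat shock protein gene sip-1, known from oocytes and embryos, stood at 7500.4, 8247 and 8237 FPKM (7995 ± 428). Y82E9BR.3, which encodes the lipid-binding subunit of the ATP synthase, stood at 6553 ± 273 and far-2, a secreted fatty acid and retinol-binding protein gene, at 6033 ± 917 FPKM. C17F4.7, known only by its sequence name, reached 7382, 5908 and 6344 FPKM (6545 ± 757). The sip-1 and Y82E9BR.3 values were close in the 3 libraries, and far-2 and C17F4.7 were highest in replicate 1.

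Below the top 30, the most abundant genes outside the ribosomal protein list included ndk-1, a nucleoside diphosphate kinase, at 5077 ± 539 FPKM, and cyn-7, a cyclophilin, which assists protein folding, at 5054 ± 527. The adenine nucleotide carrier gene ant-1.1, which exchanges ATP and ADP across the inner mitochondrial membrane, stood at 4812 ± 529, and ubq-2, which encodes ubiquitin fused to a ribosomal protein and is counted here with ubiquitin, at 4806 ± 536. The genes cey-2, a Y-box RNA-binding protein of the germline, and perm-2, a protein of the eggshell, stood at 3307 ± 143 and 3150.2 ± 69.8 FPKM. These levels put germline and eggshell transcripts among the 100 most abundant of the whole animal.

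**Figure D2:**
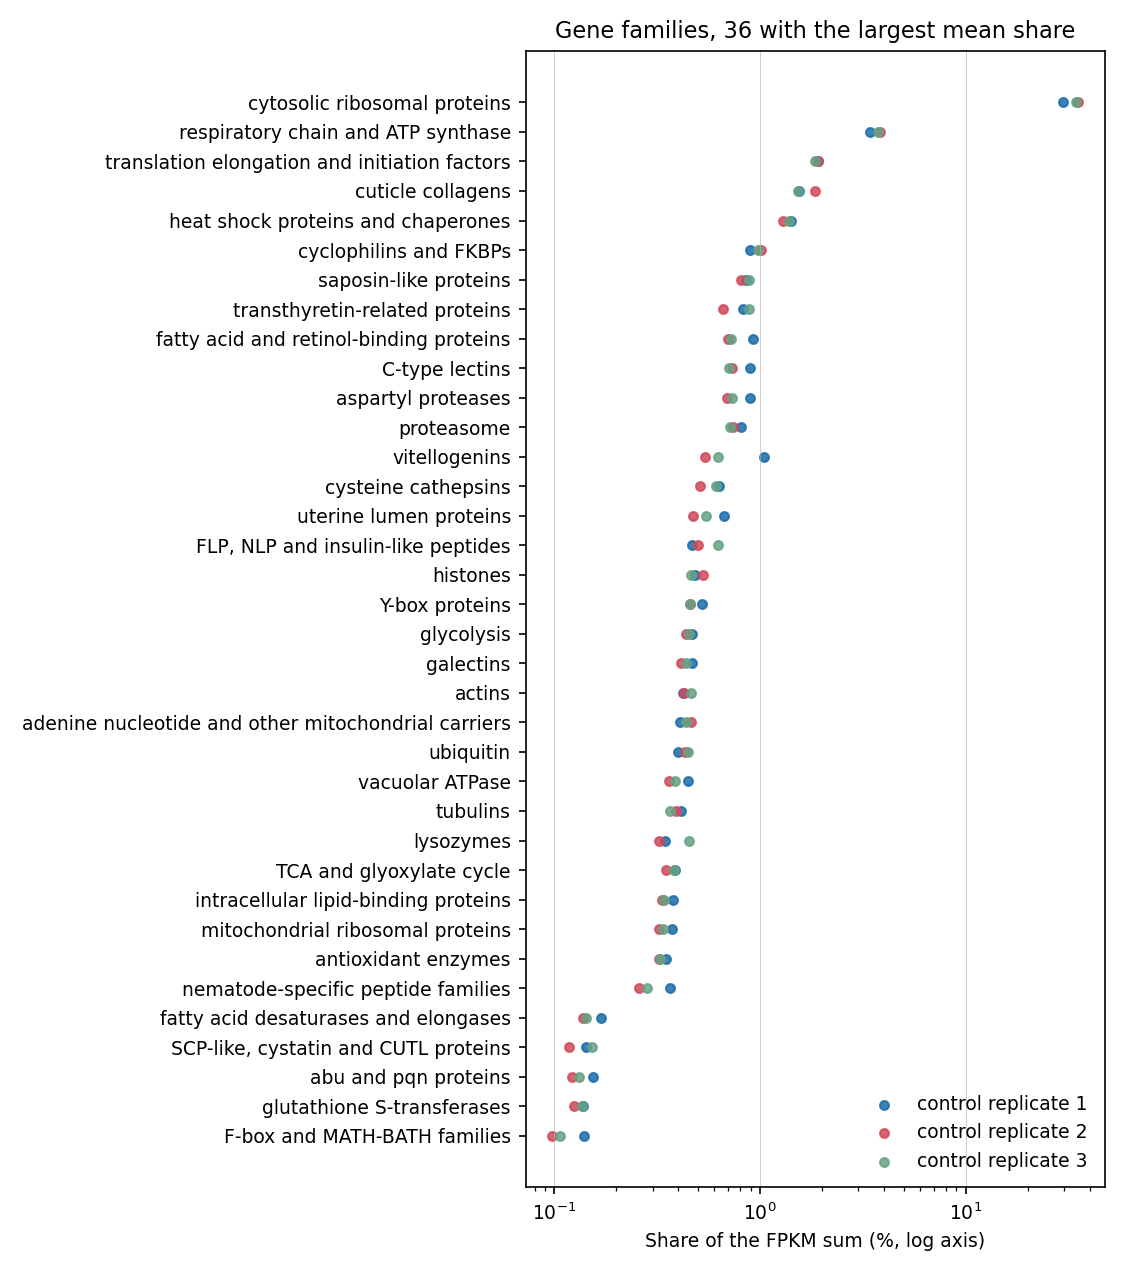
Share of the FPKM sum (horizontal log axis, %) of the 36 gene families with the largest mean share, 1 point per control library. Cytosolic ribosomal proteins lie near 33.1% and the respiratory chain near 3.67%, with translation factors and cuticle collagens next.

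The 84 genes of cytosolic ribosomal proteins held 29.5, 35.3 and 34.3% of the FPKM sum (33.1 ± 3.07%), with 52 large-subunit genes at 20.4 ± 1.95% and 32 small-subunit genes at 12.6 ± 1.13%. Of them 83 reached 1 FPKM, and rpl-42 was the one that did not. These transcripts are short, and weighted by transcript length, which is proportional to fragments, the share was 19.2%. The levels were alike for most members, with a median of 4760.4 FPKM and a middle 50% of genes between 3837 and 5704, but the full range ran from 149 to 10579.7 FPKM. Across the 83 genes, length and level had a Spearman correlation of −0.29, a description over genes that share their libraries. In 78 of the 83 genes the lowest of the 3 values was that of replicate 1, and in 83 under median-of-ratios scaling. The like share over all genes is not given here. Under that scaling replicate 1 was also the low library in 751 genes over 2-fold, a different measure from the lowest of 3 values. Whether the count is particular to ribosomal proteins was not tested.

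Copies of ribosomal protein genes differed in level. The large-subunit gene rpl-11.1 stood at 2113, 1928 and 2267 FPKM and its copy rpl-11.2 at 907, 1601 and 1629, so the first was level across libraries and the second was low in replicate 1. The gene rpl-41.1 stood at 799.9 ± 112 FPKM, far under rpl-41.2, and rpl-37.2 at 149 ± 24.7 FPKM was the lowest member to reach 1 FPKM. No label or file header states how reads were divided between near-identical copies, so these differences are uncertain.

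The 39 elongation and initiation factor genes held 1.88 ± 0.0373% of the sum, and all 39 reached 1 FPKM. Of the elongation factors, eef-1B.1 (2241 ± 373 FPKM), eef-1G (1957 ± 110.2 FPKM) and eef-2, the translocase (1751 ± 77.6 FPKM), exceeded 1000 FPKM. The second eEF1A gene, eef-1A.2, was at 422 ± 60.8 FPKM, below eef-1A.1. Mitochondrial ribosomal protein genes were far lower, with all 72 at or above 1 FPKM, a median of 50.9 FPKM and 0.345 ± 0.0257% of the sum.

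Genes of oxidative phosphorylation, encoded in the nucleus, were the next largest family, with 75 of 75 genes at or above 1 FPKM and 3.44, 3.84 and 3.73% of the sum (3.67 ± 0.208%). The ATP synthase (complex V, which makes ATP from the proton gradient) held 1.63 ± 0.0786% from 14 genes, led by Y82E9BR.3. Complex IV, cytochrome c oxidase, held 0.792 ± 0.0602% from 7 subunit genes, led by cox-7C at 2870.1 ± 443 FPKM, and complex I, NADH dehydrogenase, 0.683 ± 0.0286% from 33 genes, led by ndua-13 at 505 ± 75.4 FPKM. Complex III held 0.161 ± 0.00544% and complex II, succinate dehydrogenase, 0.0923 ± 0.000409%. The median FPKM per gene was 1155 in the ATP synthase, 1401 in complex IV, 332 in complex III, 252 in complex I and 234 in complex II. The electron carrier cytochrome c gene cyc-2.1 stood at 3361 ± 736 FPKM. Genes encoded in the mitochondrial genome were not analysed here.

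Of central carbon metabolism, glycolysis held 0.451 ± 0.0136% of the sum (18 of 19 genes at or above 1 FPKM) and the TCA and glyoxylate cycle 0.372 ± 0.0193% (20 of 20 genes). The highest glycolytic gene was aldo-2, aldolase, at 1432 ± 74.7 FPKM, and the highest of the cycle was cts-1, citrate synthase, at 734 ± 60.9 FPKM. The gene icl-1, which encodes the glyoxylate cycle enzyme that lets worms turn fat into carbohydrate, stood at 327 ± 67.8 FPKM.

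Within the list of intestinal markers, proteases had the highest levels. In that list, 13 of 13 genes reached 1 FPKM, with a median of 67.4 FPKM, and the list held 0.455 ± 0.0252% of the sum. The aspartyl protease gene asp-1 stood at 2552, 2694 and 3035 FPKM (2760.3 ± 248) and the cathepsin B-like gene cpr-1 at 1305, 1289 and 1591 (1395 ± 169.6). The transcription factor genes elt-2 (9.22 ± 1.83 FPKM) and elt-7 (10.1 ± 2.36 FPKM), which drive intestinal gene expression, were far lower, as was ges-1, the gut esterase (12.5 ± 3.18 FPKM). In bulk samples such as these, fewer cells of a type and less RNA per cell cannot be told apart.

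The yolk genes were uneven within their family and between libraries. Vitellogenins held 1.04, 0.542 and 0.625% of the sum (0.737 ± 0.269%) and 3.84% when weighted by transcript length. The gene vit-2 stood at 3789, 2020.4 and 2603 FPKM and vit-6 at 3537, 2007 and 2567, while vit-1 stood at 231, 95.1 and 74.1. All of these were highest in replicate 1, and reads cannot be split with certainty between vit-3, vit-4 and vit-5, which are near-identical. The receptor gene rme-2, which takes yolk into oocytes, stood at 285 ± 46.2 FPKM and was also highest in replicate 1.

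Other gut and secreted families followed. Of all protein-coding genes 60% reached 1 FPKM. Aspartyl proteases held 0.771 ± 0.109% of the sum, led by asp-6 (2982 ± 643 FPKM), with 11 of 17 genes (64.7%) at or above 1 FPKM, near that share. Cysteine cathepsins held 0.583 ± 0.0627%, led by cpl-1 (1787 ± 149.6 FPKM), a lysosomal protease. Saposin-like genes, whose products include pore-forming antimicrobial proteins, held 0.847 ± 0.0375% from 24 of 30 genes (80%), and spp-5 stood at 3274 ± 265 FPKM. Of the 239 C-type lectin genes, 83 (34.7%) reached 1 FPKM, and the family held 0.776 ± 0.103%, led by clec-87 (2592 ± 133 FPKM). Lysozyme genes held 0.374 ± 0.0696%, led by lys-7 at 1475, 1911 and 3380.3 FPKM, which was highest in replicate 3. Lipid carriers were high, with far-1 (3108 ± 157 FPKM) beside far-2, and lbp-9, an intracellular lipid-binding protein gene, at 2281 ± 122.6 FPKM. Transthyretin-related genes, which encode secreted proteins, held 0.791 ± 0.115%, led by ttr-51 (1733 ± 397 FPKM).

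Germline, oocyte and eggshell lists had the highest medians of the 14 tissue and stage lists. The germline and oocyte list had 27 of 27 genes at or above 1 FPKM, a median of 167 FPKM against 12.8 over all protein-coding genes at or above 1 FPKM, and held 0.982, 0.757 and 0.758% of the sum. The share was highest in replicate 1, 1.30 times the next library, but under median-of-ratios scaling the summed level of replicate 1 was 0.984 of the highest other library. Y-box genes led it, with cey-2 above and cey-3 at 1109.6 ± 31.9 FPKM, followed by regulators of maternal mRNA, pos-1 at 738 ± 123.04, mex-5 at 726 ± 136 and gld-1 at 608, 371 and 386 FPKM. The meiotic chromosome axis gene him-3 stood at 41.2 ± 8.13 FPKM and glp-1, the Notch receptor of germline stem cells, at 13.2, 6.37 and 7.42 FPKM.

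The eggshell and egg activation list had a median of 887 FPKM over its 10 genes, the highest of the 14 tissue and stage lists, and held 1.06, 0.895 and 0.889% of the sum (0.949 ± 0.0976%), where replicate 1 was highest by share but at 0.898 of the highest other library under median-of-ratios scaling. The gene perm-4, which with perm-2 is needed for the permeability barrier, stood at 2433 ± 186 FPKM. The chondroitin proteoglycan genes of the eggshell cpg-1, cpg-2 and cpg-3 stood at 1899 ± 216, 1788 ± 191 and 1331 ± 59.7 FPKM. Uterine lumen protein genes, secreted around the eggs, held 0.563 ± 0.0983%, led by ule-4 (2649.7, 1926 and 2408 FPKM). Oocyte maturation genes oma-1 and oma-2 stood at 167 ± 24.4 and 417 ± 59.98 FPKM.

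Most marker genes of sperm were under 1 FPKM, and those of the early embryo were divided. Of the 13 early embryo genes, 6 (46.2%) reached 1 FPKM, where 60% of all protein-coding genes did. The highest, pal-1 (87.4 ± 25.9 FPKM) and skn-1 (54.1 ± 10.6 FPKM), encode transcription factors that are also deposited by the mother, and med-1, hlh-25 and hlh-27 were listed at 0 in all 3 libraries. Of 15 sperm genes, 2 reached 1 FPKM, ssp-10 (6.08 ± 0.659 FPKM) and msp-31 (4.47, 1.22 and 3.11 FPKM), and the sperm-egg recognition gene spe-9 stood at 0.0715 ± 0.0492 FPKM. Of the 31 major sperm protein genes, 2 reached 1 FPKM. The FPKM sum of these 31 genes was 6.20, 2.54 and 32.1, highest in replicate 3. In the wider set of sperm-related families, 7 of 56 genes reached 1 FPKM, and the highest were ssp-37 at 92.7 ± 4.95, nspd-7 at 15.9 ± 3.07 and ssp-28 at 11.1 ± 3.05 FPKM. Of the 7 male genes matched, 0 reached 1 FPKM, and lov-1 and cwp-2, which act in male sensory neurons, were listed at 0 in all 3 libraries.

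**Figure D3:**
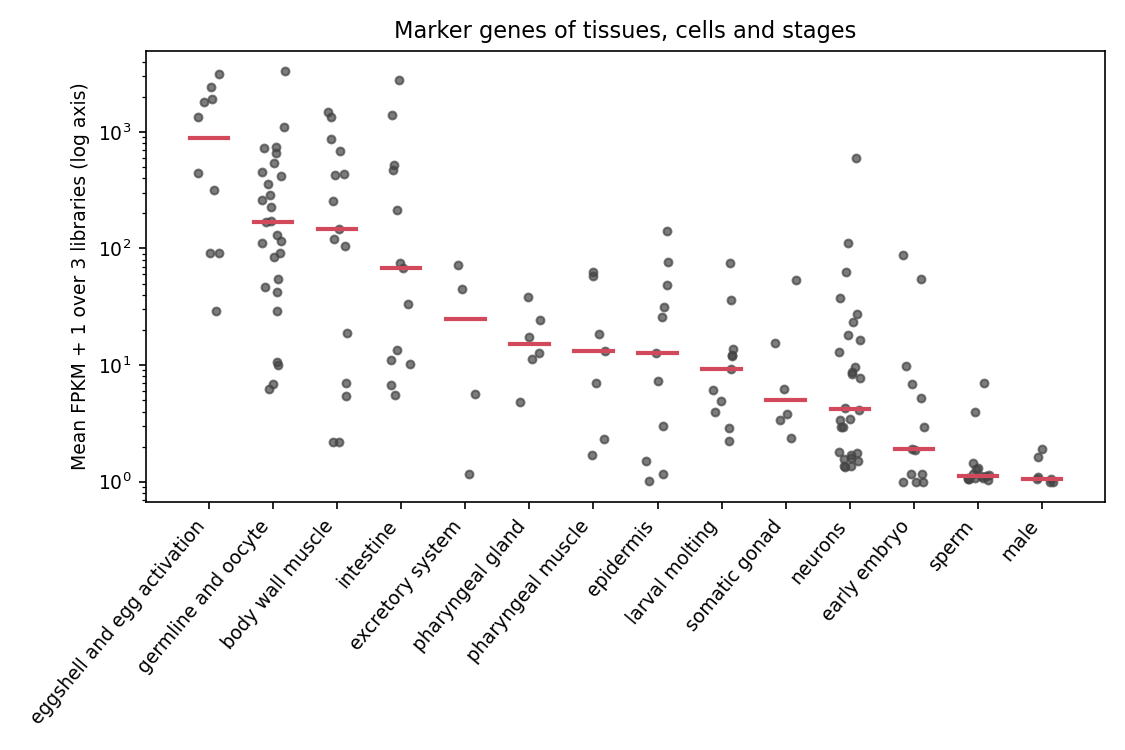
Mean FPKM + 1 over 3 libraries (vertical log axis) for each gene of 14 tissue, cell and stage lists, with each red line at the list's median. Eggshell and germline lists sit highest, sperm and male lists near the bottom of the scale at a median close to 0 FPKM.

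Among the lists of somatic tissues, body wall muscle had the highest median, 145 FPKM. All 15 muscle genes reached 1 FPKM and held 0.385, 0.455 and 0.594% of the sum (0.478 ± 0.106%), lowest in replicate 1 and highest in replicate 3. The short transcripts of the thin filament and myosin light chains led, with mlc-2 at 1055, 1481 and 1906 FPKM and pat-10, a troponin C, at 1094, 1245 and 1681. The myosin heavy chain gene unc-54 stood at 119.6 ± 31.6 FPKM, and the giant proteins of the sarcomere unc-89 and unc-22 at 1.21 ± 0.244 and 1.17 ± 0.157 FPKM. The muscle regulator hlh-1 stood at 4.39 ± 0.612 FPKM. Pharyngeal muscle genes were lower, led by tni-4, a troponin I, at 62.1 ± 10.4 FPKM.

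Neuronal marker genes at or above 1 FPKM had a median of 8.66 FPKM, against 12.8 over all such protein-coding genes. Of 28 neuronal genes, 19 (67.9%) reached 1 FPKM, near the 60% of all protein-coding genes. The list held 0.0778 ± 0.00593%, most of it from snb-1, synaptobrevin, at 600.3 ± 22.5 FPKM. The neuropeptide-processing gene egl-3, a proprotein convertase, stood at 36.3 ± 9.24 FPKM, and the transmitter synthesis genes unc-25 (GABA), tph-1 (serotonin) and cat-2 (dopamine) at 7.40 ± 1.30, 0.335 ± 0.193 and 0.365 ± 0.133 FPKM. Of 1309 chemoreceptor genes, 16 reached 1 FPKM, or 1.22%, where 60% of all protein-coding genes did, and 839 were listed at 0 in all 3 libraries. The epidermal list of regulators and a few cuticle genes had 8 of 11 genes at or above 1 FPKM and held 0.0277 ± 0.00388%, while the 175 cuticle collagen genes, most of them products of the epidermis, held 1.64 ± 0.174%. The epidermal list was led by col-19, an adult cuticle collagen, at 169.6, 171 and 80.2 FPKM, and the transcription factor genes lin-26 and elt-3 stood at 30.8 ± 4.69 and 6.33 ± 0.465 FPKM.

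Peptide genes of the FLP, NLP and insulin-like families had 129 of 148 genes (87.2%) at or above 1 FPKM, where 60% of all protein-coding genes were. They held 0.530 ± 0.0849% of the sum. The highest was nlp-40, a peptide released by the intestine, at 807 ± 36.7 FPKM. The highest FLP gene was flp-28 at 116 ± 10.4 FPKM, and the highest insulin-like gene was ins-19 at 198 ± 42.7 FPKM. The nuclear hormone receptors, a family of ligand-controlled transcription factors, had 131 of 269 genes (48.7%) at or above 1 FPKM, below that 60%. Their highest member, nhr-86, stood at 40.2 ± 2.78 FPKM.

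Protein quality control genes were at moderate to high levels. Heat shock proteins and chaperones held 1.36 ± 0.0568% from 62 of 62 genes, with hsp-1, the constitutive HSP70, at 2184 ± 151 and hsp-90 at 1604 ± 119.6 FPKM. The mitochondrial chaperone genes hsp-6 and hsp-60 stood at 201 ± 20.7 and 181 ± 7.77 FPKM, and the heat-induced hsp-70 at 5.21 ± 1.34 FPKM. All 8 subunits of the CCT chaperonin reached 1 FPKM, with a median of 243 FPKM. The proteasome held 0.753 ± 0.0492% from 33 of 33 genes, and its 20S core genes (median 369 FPKM) stood above those of the 19S cap (median 163 FPKM). The peroxiredoxin gene prdx-2, at 2167 ± 56.0 FPKM, and the superoxide dismutase gene sod-1, at 576 ± 15.8 FPKM, led the antioxidant enzymes, which held 0.331 ± 0.0140%.

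By biotype, protein-coding genes held 98.6, 96.7 and 98.4% of the sum (97.9 ± 1.03%). Ribosomal RNA genes held 0.450, 1.95 and 0.659%, which was highest in replicate 2, and rrn-3.1, a 26S ribosomal RNA gene, ranged over 3212, 14673 and 4998 FPKM (7628 ± 6166). Other classes were small, with 0.377 ± 0.0277% for ncRNA genes and 0.0845 ± 0.0204% for snoRNA genes.

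Across chromosomes, the share of the protein-coding FPKM sum was 22.6 ± 0.458% on I, 21.97 ± 0.218% on III, 17.8 ± 0.102% on IV, 15.9 ± 0.251% on V, 14.6 ± 0.0340% on II and 7.13 ± 0.433% on X. Chromosome I carries 26 of the 84 ribosomal protein genes and X carries 2. Without them X held 10.4 ± 0.314% and I 18.4 ± 0.255%. The share of protein-coding genes that reached 1 FPKM was 45.8% on V and 73.8% on III, and the median of those genes was 7.10 FPKM on X against 17.3 on III. The leading genes by chromosome were rpl-41.2 on I, rpl-37A on II, eef-1A.1 on III, rps-23 on IV, rpl-38 on V and spp-5 on X.

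Several abundant genes lie side by side. Of 259 genes of at least 500 FPKM outside the ribosomal protein list, 49 fell into 23 groups in which neighbours were within 5000 bases. The like share over all genes is not given here, so the count does not show that abundant genes are grouped more than others. The actin genes act-3, act-2 and act-1 (V:11071690-11082415, RefSeq WBcel235) stood between 1209 and 1947 FPKM, and spp-3, spp-2 and spp-5 (X:7314969-7320354) between 600.1 and 3274 FPKM. The group ZK813.3, ZK813.7 and ZK813.1 (X:3441839-3446875) has sequence names only and stood between 966 and 1453 FPKM. Actin copies are near-identical in sequence, so their separate levels are uncertain.

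The spread between the 3 libraries was measured over the 12305 genes with a mean of at least 1 FPKM. The median CV was 20.1%. Of these genes 1140, or 9.26%, differed over 2-fold between the highest and the lowest library (FPKM + 1). Pearson's r of log2(FPKM + 1) across genes was 0.967 between replicates 1 and 2, 0.961 between 1 and 3 and 0.987 between 2 and 3. Replicate 1 stood apart. It was the library that differed in 705 of the 1140 genes, 519 lower (4.22% of all genes) and 186 higher (1.51%). Replicate 3 was the one that differed in 314 genes, 263 higher (2.14%) and 51 lower (0.414%), and replicate 2 in 121, 37 higher (0.301%) and 84 lower (0.683%). Without replicate 1 the count of genes over 2-fold was 286, without replicate 2 it was 862 and without replicate 3 it was 595, and the median CV without replicate 1 was 11.2%. On median log2 levels, replicate 1 was 0.27 above replicate 2 and 0.11 above replicate 3. Scaling the libraries by median of ratios gave 1217 genes over 2-fold. Replicate 1 was then lower in 751 and higher in 86, replicate 2 lower in 39 and higher in 77, and replicate 3 lower in 58 and higher in 206, so the lean of replicate 2 turned while those of replicates 1 and 3 did not.

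The CV fell with level and then levelled off. Its median was 29.1% for genes at 1 to 3 FPKM, 19.3% at 10 to 30 and 10.4% at 100 to 1000, and 12.2% at 1000 FPKM and above. Genes over 2-fold made up 12.01% of the lowest of these classes and 3.67% of the highest.

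**Figure D4:**
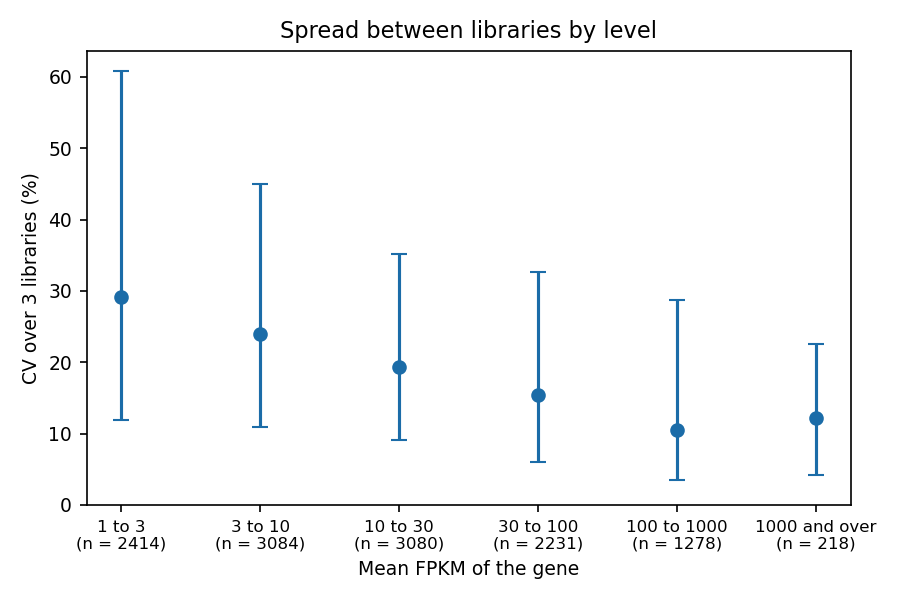
Median CV over 3 libraries (vertical axis, %) for genes grouped by mean FPKM, with bars from the 10th to the 90th percentile of genes. The median is 29.1% in the lowest group and 12.2% in the highest.

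Several families of protein synthesis, energy and protein turnover held no gene over 2-fold. Over all genes the share was 9.26%, with 7.17% at 30 to 100 FPKM, 7.20% at 100 to 1000 FPKM and 3.67% at 1000 FPKM and above. These included the cytosolic and mitochondrial ribosomal proteins, the translation factors, the respiratory chain, the proteasome, glycolysis, the TCA cycle and the vacuolar ATPase. Families of other kinds, such as actins, galectins and aspartyl proteases, also held none. The median CV was 6.31% in the proteasome, 8.35% in the translation factors, 9.28% in the respiratory chain, 9.31% in the TCA cycle, 9.83% in the mitochondrial ribosomal proteins, 10.2% in glycolysis, 12.7% in the vacuolar ATPase and 13.6% in the cytosolic ribosomal proteins. The median over all genes was 20.1%, but abundant genes had lower values, 10.4% at 100 to 1000 FPKM and 12.2% at 1000 FPKM and above. Against these, the cytosolic ribosomal proteins and the vacuolar ATPase were not steadier than genes of like level, and glycolysis lay near its class. Of the 218 genes at 1000 FPKM and above, 81 were cytosolic ribosomal protein genes, so that class is not separate from them. The mitochondrial ribosomal proteins, with a median of 50.9 FPKM, are better set against genes at 30 to 100 FPKM, whose median CV was 15.4%. The gene rpn-11, the proteasome's deubiquitinating lid subunit, had values of 441, 441 and 446 FPKM and a CV of 0.610%.

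Cuticle collagens had the highest median CV of the 47 families, 60.2%. Of 134 collagen genes at or above 1 FPKM, 99 differed over 2-fold, against 9.26% of all genes, and 61 of them were low in replicate 1, where 4.22% of all genes were. These 61 held 0.164, 0.722 and 0.893% of the sum, where the low value of replicate 1 follows from how they were chosen. All 175 collagen genes together held 1.55, 1.84 and 1.52%. The body-shape collagen gene dpy-5, whose loss gives short fat worms, stood at 11.3, 368 and 476 FPKM. The genes rol-6 and sqt-1, mutated in roller and squat worms, stood at 3.41, 107 and 117 FPKM and at 3.504, 123.2 and 141 FPKM, respectively, and col-73 had the widest ratio of all collagens, at 4.66, 179 and 256 FPKM. In each of these the value of replicate 1 was far below the other two. A further 15, among them col-181, col-122 and col-140, were low in replicate 3. They held 1.08, 0.842 and 0.386%, where the low value of replicate 3 again follows from the choice. The highest collagen, col-106, stood at 1582, 1518 and 831 FPKM, lowest in replicate 3 but within 2-fold. Without replicate 1 the count of collagens over 2-fold was 27, where a fall was fixed in advance because 61 of the 99 were called through that library.

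**Figure D5:**
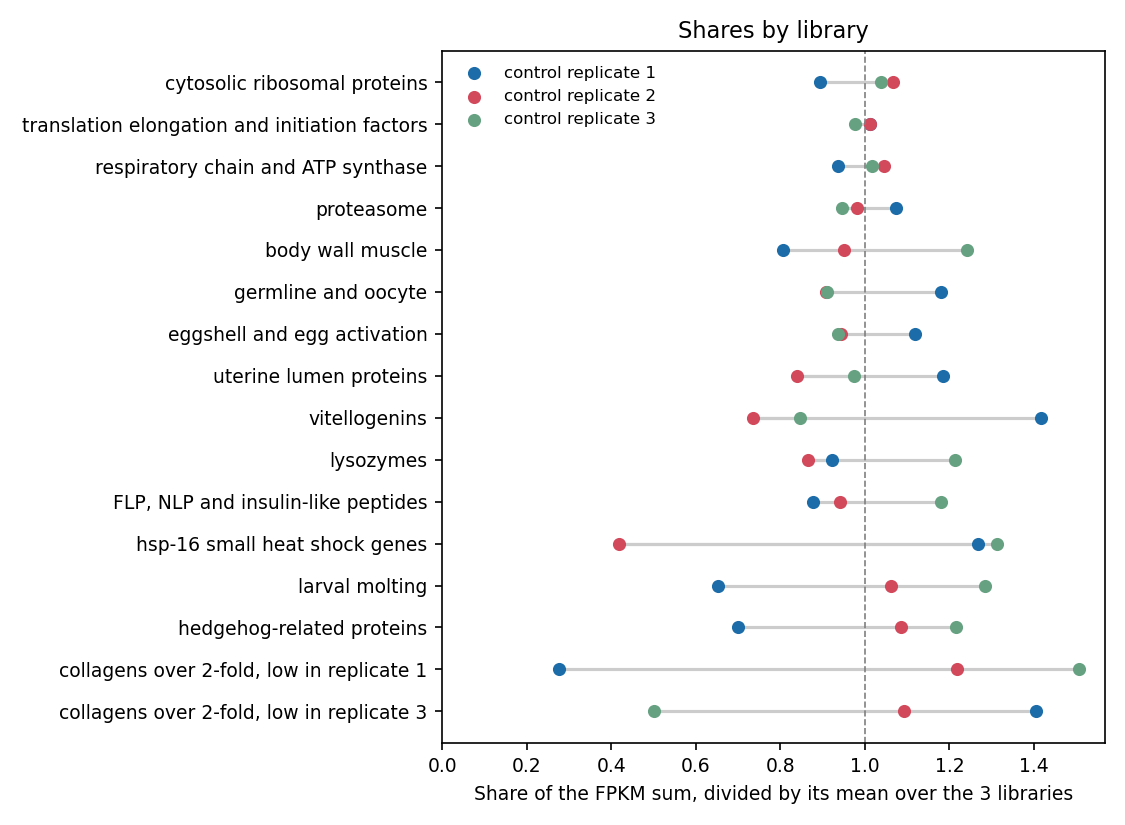
Share of the FPKM sum of 16 gene lists in each control library, divided by the mean over the 3 libraries (horizontal axis), with a dashed line at 1 and 1 point per library. Ribosomal, translation, respiratory and proteasome lists stay near the line, while the collagens low in replicate 1 stand at 0.164, 0.722 and 0.893% of the sum and the hsp-16 genes are low in replicate 2. Each set of collagens was chosen by the library in which it is low, so its low point there is fixed by the choice.

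Against 9.26% of all genes, several other lists had a large share over 2-fold, among them hedgehog-related genes, with 17 of 34 over 2-fold (12 low in replicate 1), peptide genes, with 54 of 129 (39 low in replicate 1 and 15 high in replicate 3), and histone genes, with 22 of 72 (19 low in replicate 1). Without replicate 1 the counts of these 3 lists were 4, 8 and 0. Most of these genes had been called through the low value of replicate 1, so a fall was fixed in advance. Lysozyme genes had 6 of 13 over 2-fold, larval molting genes 5 of 11, saposin-like genes 8 of 24 and chemoreceptor genes 5 of 16. Replicate 1 was also low in the larval molting list, which held 0.00885, 0.0144 and 0.0174% of the sum, and mlt-8, a molting gene, stood at 38.3, 79.8 and 104.1 FPKM. The vitellogenin share was highest in that library, by 1.67 times the next by share and 1.41 times under median-of-ratios scaling, whereas germline and eggshell lists were highest there by share only. The part of any of these lists in the other differences of replicate 1 was not tested.

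Replicates 2 and 3 had their own features. All 8 hsp-16 genes, small heat shock genes induced by heat and other stress, differed over 2-fold, 7 of them low in replicate 2. Of all genes, 9.26% differed over 2-fold and 0.683% were low in replicate 2. The gene hsp-16.1 stood at 117, 35.9 and 118 FPKM, and its near-identical copy hsp-16.11 had almost equal values. The means of hsp-16.48 and hsp-16.49 were also close, 77.4 and 77.2 FPKM, so the 8 genes may not be 8 separate readings. Replicate 3 was high in lys-7, given above, and in 5 of the 6 lysozyme genes over 2-fold, where 263 of all 1140 such genes were. Replicate 3 was also high in clec-71 at 0.951, 2.44 and 27.7 FPKM and ins-7 at 17.7, 26.6 and 62.8 FPKM. Beyond the collagens, the genes with the widest ratios included spl-2 at 0.490, 5.32 and 29.0 FPKM and Y82E9BR.27, an ncRNA gene, at 246, 0 and 0 FPKM, which was listed at 0 in replicates 2 and 3. At the other end, the steadiest genes of at least 10 FPKM were Y75B8A.31 at 35.95, 35.9 and 36.01 FPKM and pole-4, a DNA polymerase epsilon subunit, at 41.5, 41.4 and 41.5 FPKM.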

How the data were processed

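Per the labels' protocols, whole N2 worms were lysed in Trizol and sequencing libraries prepared with a NEBNext Ultra RNA kit. Per the submitters' processing notes the tools include Bowtie2 2.2.3, TopHat2 2.0.12, TopHat, HTSeq 0.6.1 and DESeq 1.18.0 with genome build WBcel235. Each deposited value is an FPKM, per the file headers, with a single column in each library. The program behind the FPKM values and the strandedness of the kit were not given in the sources used here, which leaves overlapping and antisense genes uncertain. Zeros were written as 0.0001 and were read as 0.

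Of 45132 gene IDs, 45010 matched a RefSeq gene table of WBcel235, and 1217 of the current symbols were not the deposited name. The longest transcript of Ensembl 115 gave the length. Mitochondrial-genome genes had 0 matches. Libraries were used as deposited; the vit-5 RNAi libraries were not used. Genes with a mean of at least 1 FPKM were kept for spread, with ratios on FPKM + 1. There was 1 group, so no test was run. The members and lists were chosen with earlier results of these data known, and some lists (uterine lumen, Y-box, galectin, cyclophilin) were added and name patterns corrected after values were seen. Named genes were the 30 highest means, the up to 4 highest of each list, tissue markers, the leading gene of each chromosome, the 20 widest ratios and the 10 smallest CVs among genes of at least 10 FPKM, and a few more chosen after their values were seen (rpl-11.1, rpl-11.2, rpl-41.1, rpl-42, rpl-37.2, eef-1A.2, ndk-1, hsp-6, hsp-60, hsp-70, mir-354, Y37D8A.19 and K06A4.7 among them). The measure of spread was checked on simulated data with less noise than these libraries and with large planted changes. That check covers the arithmetic, not how the counts over 2-fold behave in these data. Depth is known only roughly. At the best-fitting step, at most 41.4% of low values fell near a whole number of fragments (within 0.1). The 20% of chance holds for a step fixed in advance, so part of the excess can come from choosing the step. No counting interval is given. Python 3.11.15, pandas 2.3.3, numpy 2.4.6, scipy 1.17.1 and matplotlib 3.10.9 were used.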

Additional observations from a re-analysis of the deposited data

How the results depend on the processing

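No paired analysis was possible because the results come from no test and only 1 group was in view. Leaving out each library in turn gave 12157 to 12355 genes at or above 1 FPKM, a top-10 share of 7.06 to 7.79%, 141.5 to 167.5 genes for 50% of the sum, 286 to 862 genes over 2-fold and a median CV of 11.2 to 21.2%. A threshold of 10 FPKM in place of 1 gave 6758 genes. With FPKM times transcript length the top-10 share was 9.31%, the genes holding 50% of the sum were 261 and the ribosomal protein share was 19.2%, and 55 of 61 list shares moved by more than the spread between libraries. With a mean of at least 10 FPKM the count over 2-fold was 496, and with a pseudocount of 0.1 it was 1900. Median-of-ratios scaling gave 1217 genes over 2-fold and a median CV of 15.9%. Added after the data were seen, the same scaling gave 837, 116 and 264 genes with replicate 1, 2 or 3 apart, and of 9 gene lists whose highest or lowest library was checked it turned 2: replicate 1 over the highest other library went from 1.30 to 0.984 for germline and oocyte genes and from 1.19 to 0.898 for eggshell genes. The cause was not tested. Taking only protein-coding genes into the sum moved 1 of 61 list shares, and leaving ribosomal RNA genes out moved 0 of 47 family shares. Unknown strand, read assignment between copies and a depth known only roughly limit single genes and low levels.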

Other observations

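Genes without a name were many but held a smaller part of the sum than of the gene count. Protein-coding genes known only by a sequence name numbered 8591 of 19846. Of these 4533 reached 1 FPKM, where 60% of all protein-coding genes did. Genes with a sequence name only held 16.8, 14.98 and 15.9% of the FPKM sum (15.9 ± 0.934%). Of them 29 had a mean of at least 1000 FPKM, led by Y82E9BR.3 and C17F4.7, followed by Y37D8A.19 at 3598 ± 335 FPKM and K06A4.7 at 3009 ± 399 FPKM. The 47 gene families together held 56.8 ± 2.30% of the sum.

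Gene families differed in how many members reached 1 FPKM, where 60% of all protein-coding genes did. Of 38 pals genes, 8 reached it, and the highest, pals-23, stood at 10.97 ± 1.77 FPKM. Of 412 F-box and MATH-BATH genes, 163 did (39.6%), led by bath-40 at 157 ± 22.8 FPKM. Cytochrome P450 genes, with 39 of 75 (52%), and UDP-glucuronosyltransferases, with 39 of 67 (58.2%), lay near the share of all protein-coding genes. The first were led by cyp-31A2, a germline enzyme needed for the eggshell and similar in sequence to cyp-31A3, at 71.8 ± 7.85 FPKM, and the others by ugt-62 at 36.1 ± 7.56 FPKM.

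Histone transcripts were led by variant and linker genes. The linker histone gene hil-4 stood at 1022 ± 86.0 FPKM, htz-1, the H2A.Z variant, at 987 ± 132 FPKM, and his-72, an H3.3 variant, at 701 ± 69.7 FPKM, while the median over 72 core and variant histone genes was 3.36 FPKM. The miRNA gene mir-354 was listed at 344, 491 and 463 FPKM.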
